A study of Homo sapiens with 18 samples.

Results

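The 40 genes described here drive or restrain the cell cycle: G1 cyclins and their kinase, replication licensing factors, DNA synthesis enzymes, mitotic kinases, spindle and kinetochore proteins, 2 proliferation markers and 3 inhibitors of cyclin-dependent kinases (CDKs). They were chosen by gene symbol, and each of the 40 symbols matched 1 of the 61487 Ensembl identifiers in the deposited count table. RNA was counted in 18 libraries of MSC-hTERT, a human mesenchymal stem cell line immortalized with hTERT, the catalytic subunit of telomerase. There were 6 groups of 3 libraries, with the labels pMSCV (a retroviral vector by name, taken as the control), SRF (serum response factor, a transcription factor) and 4 pairs of SRF with a partner gene, read as fusions (SRF-RELA, SRF-PDGFRB, SRF-ICA1L and SRF-FOXO1). The cells of every group were grown in medium with 10% serum and FGF-2 at 1 ng/ml, both of which drive proliferation, with glutamine, ascorbic acid, heparin and antibiotics. The labels give neither the time for which a construct was expressed nor whether a line was pooled or clonal, and they number the 3 libraries of each group 1 to 3 without saying what a number marks.

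In a dividing cell, cyclin D and cyclin E with their CDKs inactivate the retinoblastoma protein and release E2F factors, which raise genes of DNA replication such as the MCM helicase. Later in the cycle a second wave, driven through MYBL2 and FOXM1, raises the mitotic genes. The promoters of mitotic genes often carry a CHR element (cell cycle genes homology region) near the start site, together with CCAAT boxes bound by NF-Y, whereas promoters of replication genes often carry E2F sites. CDKN1A (p21), CDKN2A (p16 and ARF) and CDKN2B (p15) hold cells in G1. In bulk RNA these genes follow the share of cells in each phase as well as the RNA per cell, and fewer cells in a phase and less RNA per cell cannot be told apart.

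Promoters are described first. The mitotic and the replication genes moved differently in the counts below, and the part of promoter letters in that was not tested. RefSeq promoter windows of GRCh38.p14 (250 bases before to 50 bases after the start) were at hand for 30 of the 40 genes. The letters searched on both strands were TTTGAA for CHR, CCAAT, and TTTCCCGC, TTTCGCGC, TTTGCCGC or TTTGGCGC for E2F. The 5 windows shown are those of KIF20A and CENPA, with the largest differences between replicate numbers, CDC20, the next such gene whose window holds both CHR and CCAAT letters, and MCM2 and MCM3, the licensing genes with a window that differed most among those called. They were picked after the values were seen. Capitals mark the letters found, on either strand, and overlapping matches run together.
KIF20A: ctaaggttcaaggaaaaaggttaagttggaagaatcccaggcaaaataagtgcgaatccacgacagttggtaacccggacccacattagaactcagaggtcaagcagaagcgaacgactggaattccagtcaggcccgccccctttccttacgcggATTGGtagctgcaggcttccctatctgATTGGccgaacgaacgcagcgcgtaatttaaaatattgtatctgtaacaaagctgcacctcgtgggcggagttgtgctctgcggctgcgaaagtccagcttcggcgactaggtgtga
CENPA: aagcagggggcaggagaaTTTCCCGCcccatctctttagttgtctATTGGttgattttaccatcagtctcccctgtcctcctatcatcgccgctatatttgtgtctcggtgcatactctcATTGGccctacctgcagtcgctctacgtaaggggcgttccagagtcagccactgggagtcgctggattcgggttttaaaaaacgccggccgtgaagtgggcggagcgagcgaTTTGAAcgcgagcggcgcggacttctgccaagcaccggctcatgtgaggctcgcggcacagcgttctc
CDC20: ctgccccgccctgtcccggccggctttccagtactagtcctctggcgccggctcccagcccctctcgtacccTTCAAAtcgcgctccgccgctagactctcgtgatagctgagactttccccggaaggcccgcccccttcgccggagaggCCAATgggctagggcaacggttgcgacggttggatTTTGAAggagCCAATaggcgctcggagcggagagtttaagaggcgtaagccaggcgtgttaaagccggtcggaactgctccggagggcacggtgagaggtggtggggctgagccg
MCM2: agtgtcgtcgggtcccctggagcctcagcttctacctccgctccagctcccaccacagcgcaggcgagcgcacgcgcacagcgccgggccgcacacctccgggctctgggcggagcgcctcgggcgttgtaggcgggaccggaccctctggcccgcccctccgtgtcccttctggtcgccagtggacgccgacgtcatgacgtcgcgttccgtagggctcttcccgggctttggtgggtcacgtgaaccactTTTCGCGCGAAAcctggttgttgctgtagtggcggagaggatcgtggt
MCM3: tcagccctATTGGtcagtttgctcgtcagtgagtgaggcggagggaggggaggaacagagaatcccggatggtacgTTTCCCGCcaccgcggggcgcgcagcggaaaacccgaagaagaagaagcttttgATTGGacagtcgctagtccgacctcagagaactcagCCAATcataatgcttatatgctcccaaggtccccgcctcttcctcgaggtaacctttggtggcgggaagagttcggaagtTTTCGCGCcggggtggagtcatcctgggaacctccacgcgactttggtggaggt
The windows lie at chr5:138178862-138179161 (KIF20A, plus strand), chr2:26785806-26786105 (CENPA, plus strand), chr1:43358731-43359030 (CDC20, plus strand), chr3:127598161-127598460 (MCM2, plus strand) and chr6:52284693-52284992 (MCM3, minus strand). TTTGAA begins 18 bases before the start of CENPA and 65 bases before that of CDC20. In KIF20A the CCAAT letters stand on the opposite strand, 94 and 67 bases before the start. In MCM2 TTTCGCGC overlaps its reverse complement just past the start, and in MCM3 TTTCGCGC begins 4 bases before it.

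The CHR letters were in 6 of 8 windows of spindle, kinetochore and mitotic exit genes (NUSAP1 included), 3 of 7 of the G2 and mitotic kinase genes and both proliferation markers. They were in 0 of 5 windows of licensing genes and 0 of 3 of DNA synthesis genes. The E2F letters were in 5 of 5 licensing windows, 2 of 3 DNA synthesis windows, 2 of 8 spindle windows and 1 of 7 mitotic kinase windows. The CCAAT letters were in 7 of 8 spindle windows, 6 of 7 mitotic kinase windows and both proliferation markers. They were also in 4 of 5 licensing and 2 of 3 DNA synthesis windows, so they did not part these roles. The window of CDC25C, of the mitotic kinase role, held none of the letters searched. Among 27305 RefSeq windows of this length, 15.4% held the CHR letters, 35.7% CCAAT and 3.33% the E2F letters. Among the 12150 windows of genes tested here the shares were 10.4%, 36.5% and 5.05%. A wider list of 58 other G2 and M phase windows held CHR letters in 65.5% and E2F letters in 5.17%, and 38 other S phase windows held them in 5.26% and 39.5%. The CCAAT letters were in 67.2% of these G2 and M phase windows and 47.4% of these S phase windows. A match describes letters and is not a measured binding site.

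Total counts ran from 19362319 to 29806771 per library, and 18544 genes passed the filter on low counts, 39 of the 40 among them. NUSAP1, a spindle assembly protein, did not pass: ENSG00000137804 held 1 to 9 counts in a library, at most 0.312 CPM (counts scaled to a common library total). SRF was at 57.3 to 64.4 CPM in pMSCV, 678 to 1120 CPM in SRF and 151 to 337 CPM in the fusions, and ICA1L and RELA were called higher than in pMSCV in the fusions named for them. PDGFRB was at 526 to 930 CPM in SRF-PDGFRB and at 381 to 502 CPM in pMSCV, not called. FOXO1 was at 7.36 to 14.4 CPM in libraries with the label SRF-FOXO1 against 9.45 to 17.4 CPM in pMSCV, so its level does not bear out their label, and they are named below by it only. TERT was between 41.4 and 86.0 CPM in every library. The mesenchymal markers ENG, NT5E and THY1 were at 36.8 CPM or more in every library, CD3E and KRT5 were at 0 in every library, and the 6 haematopoietic markers summed to at most 4.09 CPM. Summed epithelial markers, which here are nearly all KRT8 and KRT18, were at 50.9 to 98.6 CPM in the libraries with number 1, 87.4 to 232 CPM in number 2 and 91.2 to 176 CPM in number 3, and their part in the results below was not tested.

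Without a term for replicate number, edgeR called no cell cycle gene between the 6 groups. A test over all differences between them (edgeR quasi-likelihood F test, adjusted p under 0.05) called 0 of the 39 genes and 1.67% of the genes tested. At an unadjusted p under 0.05 there were 4 of the 39, CCND1, CDC6, CDKN2A and CDKN2B, and 2409 of the 18544 genes tested. The DESeq2 test called 1 of the 39, CDC6. With the replicate number as a block, 2 of the 39 were called, CDC6 and CDKN2B (edgeR adjusted p 0.0439 and 0.00531), and 8.77% of the genes tested. By replicate number, 29 of the 39 genes differed between the 3 numbers, against 24.6% of the genes tested. Each number has 6 libraries, 1 of each group, and group was a term of that model. Since the labels do not say what a number marks, its 6 libraries may share a source, and these p-values measure the spread between libraries and not between independent repeats of a number.

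**Figure D1:**
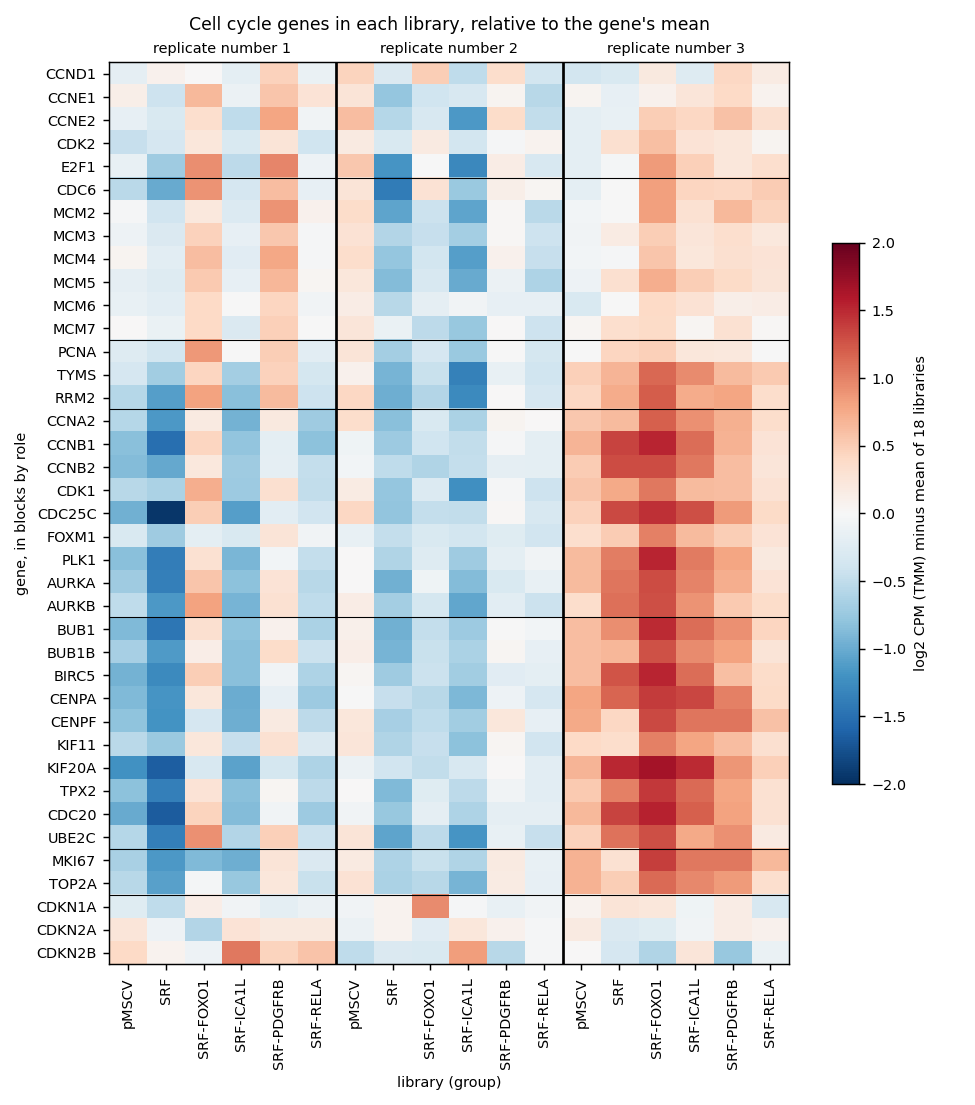
Log2 CPM (TMM-scaled) of the 39 tested cell cycle genes (rows, in blocks by role) in the 18 libraries (columns, ordered by replicate number and then by group), as the difference from each gene's mean over 18 libraries. The mitotic blocks are red in the 6 libraries with number 3, while the licensing block is bluest in number 2 of SRF and SRF-ICA1L.

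The mitotic genes were highest in the libraries with number 3. Against number 1, 24 genes were higher and 1 lower, where 16.0% of the genes tested were called, 8.16% higher and 7.84% lower. They include each of the 9 G2 and mitotic kinase genes, each of the 10 tested spindle, kinetochore and mitotic exit genes, and both proliferation markers. Over the 39 genes the median log2 fold change was 0.94, against 0.00 over all genes tested. Of the 25 calls, 19 held under each of 12 alternatives, which do not include a minimum fold change, and 18 had a log2 fold change of at least 1. The calls of CDK2, RRM2, CDK1, AURKB and UBE2C were lost without the SRF group. Number 3 was the highest of the 3 libraries in each of the 6 groups for 23 of the 39 genes, against 3.57% of all genes tested. For 10 of them the lowest number 3 library lay above every library of numbers 1 and 2, against 0.636% of all genes tested.

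Among the mitotic kinases and their regulators, CCNB1, cyclin B1, which activates CDK1 for entry into mitosis, had a lowest, median and highest level of 13.8, 22.5 and 54.3 CPM in number 1. It was at 24.6, 30.5 and 39.7 CPM in number 2 and at 48.6, 76.1 and 114 CPM in number 3. Its libraries in number 3 lay above every number 2 library, and only SRF-FOXO1 replicate 1, at 54.3 CPM, reached into their range from number 1. The log2 fold change of number 3 against 1 was 1.56 (edgeR adjusted p 0.000997, SE 0.25). PLK1, a kinase of centrosome maturation and chromosome segregation, was at 7.53, 12.7 and 25.1 CPM in number 1, 11.1, 16.5 and 20.8 CPM in number 2 and at 23.2, 38.5 and 57.3 CPM in number 3, a log2 fold change of 1.43 (edgeR adjusted p 0.000704, SE 0.22). FOXM1, a transcription factor of the mitotic wave, had the smallest difference of this role: it was at 28.6, 40.5 and 58.0 CPM in number 1, 33.4, 34.9 and 44.1 CPM in number 2 and 58.2, 69.3 and 94.5 CPM in number 3. Its number 3 libraries did not overlap the others, with a log2 fold change of 0.76 against number 1 (edgeR adjusted p 0.000669, SE 0.12). The other 6 of this role, CCNA2, CCNB2, CDK1, CDC25C, AURKA and AURKB, were higher in number 3 than in number 1 by 0.87 (CDK1) to 1.62 (CDC25C) on the log2 scale.

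Of the spindle and kinetochore genes, KIF20A, a kinesin of the central spindle, had the largest difference of the 39. It was at 8.94, 15.7 and 23.1 CPM in number 1, 18.4, 22.8 and 29.0 CPM in number 2 and 40.1, 66.4 and 89.6 CPM in number 3, so that no number 3 library overlapped the others. Its log2 fold change of number 3 against 1 was 2.00 (edgeR adjusted p 0.000127, SE 0.24). CENPA, the histone H3 variant that marks centromeres, was at 2.48, 3.31 and 6.94 CPM in number 1, 2.81, 4.31 and 5.93 CPM in number 2 and 7.69, 12.8 and 15.4 CPM in number 3. CENPF, a kinetochore protein of G2 and mitosis, was at 31.4, 46.5 and 84.6 CPM, 41.2, 54.7 and 88.2 CPM, and 98.0, 140 and 181 CPM in the same order. Both were above every other library in number 3, with log2 fold changes against number 1 of 1.64 (edgeR adjusted p 0.000157, SE 0.22) for CENPA and 1.49 (edgeR adjusted p 5.64e-05, SE 0.17) for CENPF. CDC20 and UBE2C, the activator and the ubiquitin-conjugating enzyme of the anaphase-promoting complex, were higher by 1.62 (edgeR adjusted p 0.000957, SE 0.26) and 1.02 (edgeR adjusted p 0.0294, SE 0.29). The checkpoint kinases BUB1 and BUB1B, the passenger complex subunit BIRC5 and the spindle proteins KIF11 and TPX2 were also called, from 0.84 (KIF11) to 1.48 (BUB1). The windows of CENPA and CDC20 shown above hold CHR and CCAAT letters, and that of KIF20A holds CCAAT letters only. The CENPA window also holds E2F letters, 232 bases before the start.

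The 2 proliferation markers moved with the mitotic genes. MKI67 (Ki-67, which coats mitotic chromosomes) was at 40.02, 53.4 and 109 CPM in number 1, 53.5, 68.6 and 105 CPM in number 2 and 111, 166 and 231 CPM in number 3. TOP2A, the topoisomerase that untangles sister chromatids, was at 40.9, 62.1 and 104 CPM, 42.0, 66.0 and 110 CPM, and 111, 157 and 191 CPM. For both, each number 3 library was above each library of the other numbers. The log2 fold changes of number 3 against 1 were 1.48 for MKI67 (edgeR adjusted p 0.000107, SE 0.18) and 1.20 for TOP2A (edgeR adjusted p 0.000716, SE 0.19).

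**Figure D2:**
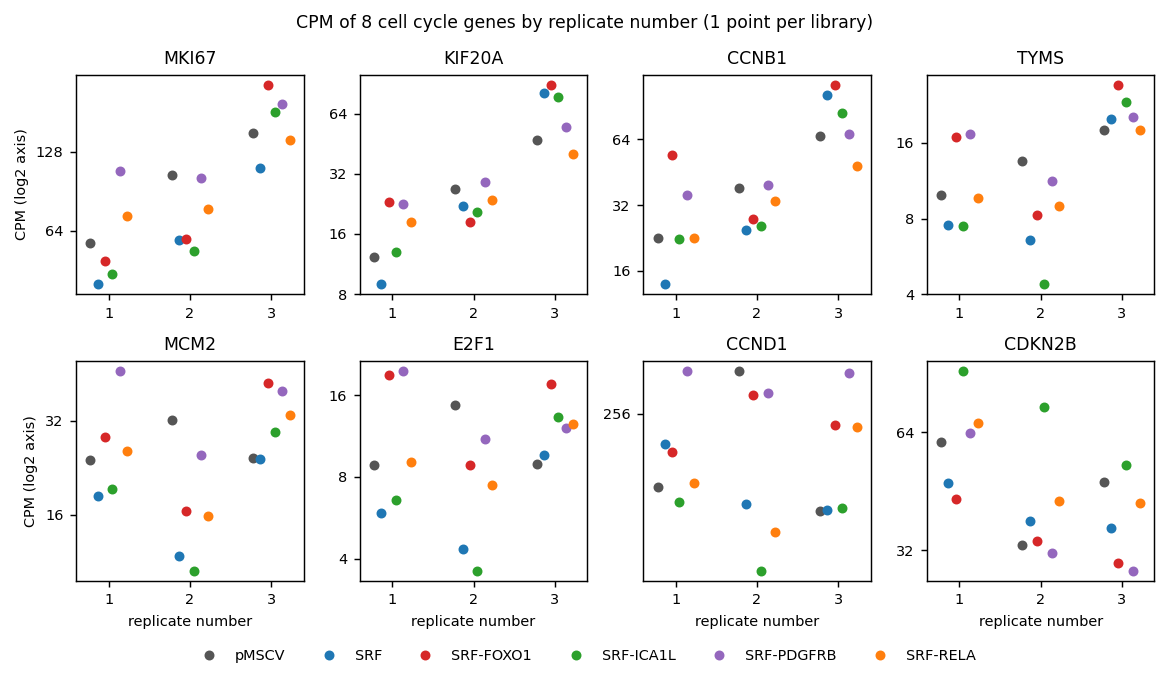
CPM (log2 axis) of 8 cell cycle genes by replicate number, with 1 point per library coloured by group. MKI67 and KIF20A are higher in every number 3 library than in any other, MCM2 is lowest in number 2 in 5 of 6 groups, and CCND1 shows no order by number.

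No replication licensing gene was called between numbers 3 and 1. Of CDC6, which loads the helicase, and MCM2 to MCM7, its subunits, 0 of 7 passed the test, with log2 fold changes from 0.04 (MCM6) to 0.42 (CDC6). At an unadjusted p under 0.05 there were also 0 of 7, and 5421 of the 18544 genes tested. Against number 3, number 2 was lower in 5 of the 7, MCM2, MCM3, MCM4, MCM5 and MCM7, where 4.99% of the genes tested were lower. MCM2 was at 18.3, 24.8 and 46.2 CPM in number 1, 10.6, 16.1 and 32.1 CPM in number 2 and 24.1, 31.4 and 42.4 CPM in number 3. The ranges overlap, and number 2 was the lowest library in each group but pMSCV, where it was the highest, at 32.1 CPM. In number 2 MCM2 was lower than in number 3 by a log2 fold change of -0.80 (edgeR adjusted p 0.0163, SE 0.19). For MCM3 the log2 fold change was -0.52 (edgeR adjusted p 0.0371, SE 0.15), for MCM4 -0.58, for MCM5 -0.79 and for MCM7 -0.44. These 5 calls are not stable: leaving out the SRF, SRF-FOXO1, SRF-ICA1L or SRF-RELA group ended all 5, as did leaving out the group terms or the count filter. Without the SRF group, for example, MCM2 was at -0.75 (edgeR adjusted p 0.0711). Against number 1, number 2 had 0 of 7 called, with log2 fold changes from -0.54 to -0.14. At an unadjusted p under 0.05 there were 5 of 7, and 5460 of the 18544 genes tested. The pMSCV libraries bear on this count: without that group, number 2 was lower than number 1 in 9 of the 39 genes, against 1 with it, where 6.91% of the genes tested were lower against 7.29% with it. The 9 are MCM2 to MCM7, CCNE1, PCNA and CDKN2B.

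DNA synthesis genes divided between these patterns. TYMS, which makes thymidylate, was at 7.48, 9.80 and 17.4 CPM in number 1, 4.38, 8.62 and 13.6 CPM in number 2 and 17.97, 20.2 and 27.3 CPM in number 3. Its number 3 libraries lay above all others, by a log2 fold change of 0.94 against number 1 (edgeR adjusted p 0.00600, SE 0.21) and with number 2 against number 3 at -1.26 (edgeR adjusted p 0.00305, SE 0.21). RRM2, the regulatory subunit of ribonucleotide reductase, was also higher in number 3 than in number 1 by 0.94 (edgeR adjusted p 0.0411, SE 0.29), but its ranges overlap, with SRF-FOXO1 replicate 1 at 81.0 CPM, and the call was lost without the SRF group (edgeR adjusted p 0.165). PCNA, the sliding clamp of the replication fork, was not called between any numbers. It was at 50.0, 59.1 and 120 CPM in number 1, 35.5, 47.9 and 80.1 CPM in number 2 and 65.7, 77.4 and 90.2 CPM in number 3.

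Of the 5 genes of G1 and S entry, 1 was called between numbers, CDK2, in number 3 against 1. This is 20% of the 5, near the 16.0% called of all genes tested in that comparison. CCND1, cyclin D1, was at 181, 207 and 303 CPM in number 1, 138, 227 and 304 CPM in number 2 and 174, 210 and 301 CPM in number 3, so the ranges nearly coincide. CCNE1, CCNE2 and E2F1 were not called. In number 2 against 3 their log2 fold changes were -0.40, -0.48 and -0.62, each at an unadjusted edgeR p under 0.05. After adjustment, 9.98% of all genes tested were called in that comparison and none of these genes was. CCNE1 in number 2 against 1, at -0.48 (edgeR adjusted p 0.0522, SE 0.16), was called with total count scaling, by DESeq2, with at least 10 counts in every library and without pMSCV. CDK2 was higher in number 3 than in number 1 by 0.39 (edgeR adjusted p 0.0440, SE 0.12), a call lost without the SRF group (0.126). Among the inhibitors, CDKN2B went the other way from the mitotic genes. It was at 43.2, 62.1 and 91.7 CPM in number 1, 31.4, 35.9 and 74.1 CPM in number 2 and 28.4, 39.3 and 52.7 CPM in number 3. The ranges overlap between groups, but within each of the 6 groups number 1 was the highest library. The log2 fold changes against number 1 were -0.54 in number 2 (edgeR adjusted p 0.00745, SE 0.12) and -0.67 in number 3 (edgeR adjusted p 0.00185, SE 0.12). Without group terms in the model both calls were lost (edgeR adjusted p 0.206 and 0.0895). CDKN1A and CDKN2A were not called between numbers. CDKN2B shares its locus with an antisense gene, and the use of strand in counting is not given in the sources used here, so reads of the pair may be mixed.

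**Figure D3:**
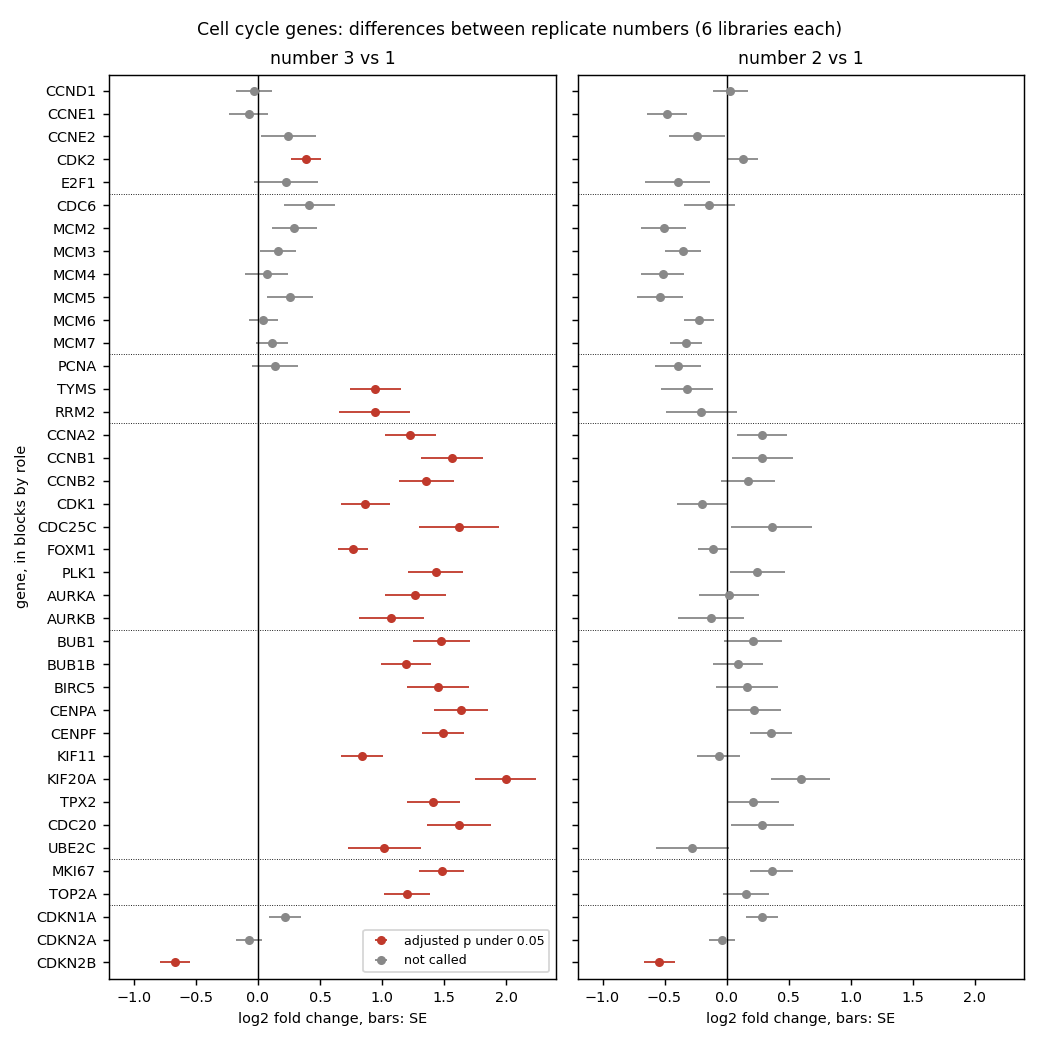
Log2 fold changes (points) with SE (bars) of the 39 tested cell cycle genes for number 3 against 1 (left) and number 2 against 1 (right), which share the 6 libraries of number 1. Red marks an edgeR adjusted p under 0.05: 25 genes on the left, of which CDKN2B alone is lower, and CDKN2B only on the right.

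Against number 3, number 2 was lower in 28 of the 39 genes and higher in 0 (9.98% of the genes tested were called, in equal parts higher and lower), with a median log2 fold change of -1.05. They include each of the 9 G2 and mitotic kinase genes (-0.88 for FOXM1 to -1.27 for CCNB1), each of the 10 tested spindle genes (-0.90 for KIF11 to -1.42 for CENPA) and both proliferation markers. Without the SRF-ICA1L group, 18 were lower. Number 2 against number 1 called 1 of 39, CDKN2B, lower, where 15.9% of the genes tested were called (8.61% higher, 7.29% lower). Total counts were 19362319 to 28877142 in number 3, 22512032 to 29806771 in number 1 and 23264166 to 29132937 in number 2, and mitochondrial transcripts took 4.71% to 6.97%, 4.52% to 5.16% and 4.37% to 5.28% of the counts. The part of depth and RNA quality in these differences was not tested.

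The wider lists of cell cycle genes were read the same way; they were written with earlier results of these data known. Of 70 other G2 and M phase genes, 66 were higher and 0 lower in number 3 than in number 1, with a median log2 fold change of 1.02. PIMREG, DLGAP5 and GTSE1 had the largest differences, at 1.86, 1.83 and 1.69. Of 44 other S phase genes, 6 were higher and 1 lower, with a median of 0.37: TK1 (thymidine kinase) and GINS4 were higher by 1.09 and 0.65, and E2F7, a repressor of E2F targets, was lower by a log2 fold change of -0.50 (edgeR adjusted p 0.0402). Number 2 was lower than number 3 in 25 of the 44 S phase genes and 64 of the 70 G2 and M phase genes, and higher in 0 of both. Of all genes tested, 4.99% were lower in that comparison. Of 20 tested other G1 regulators, number 3 against 1 had 2 higher (CDKN2D and CDKN2C, CDK4 and CDK6 inhibitors, by 0.54 and 0.51) and 1 lower (MYC, at -0.62). The 15% called of these regulators and the 15.9% called of the S phase genes lie near the 16.0% of all genes tested. Of 22 p53 targets, 0 were higher and 5 lower, where 7.84% of the genes tested were lower. The 5 include GDF15, a stress-induced cytokine, at -0.93.

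Each construct was then compared with pMSCV, to ask what SRF or a fusion does to these genes. Without the replicate block, 0 of the 39 genes were called by edgeR in each of the 5 comparisons. Of the genes tested, 0.0270% were called for SRF, 0.928% for SRF-FOXO1, 0.469% for SRF-ICA1L, 0.0324% for SRF-PDGFRB and 0.183% for SRF-RELA. At an unadjusted p under 0.05 there were 0, 4, 1, 0 and 0 of the 39, and 997, 2802, 2001, 390 and 710 of the 18544 genes tested. With the replicate block there were 6, 5, 2, 0 and 0 of the 39, and 1926, 4275, 3326, 950 and 1516 of the 18544. Of the 39, 0, 0, 1, 0 and 0 were called with the block, where 0.243%, 7.03%, 4.66%, 0.178% and 0.971% of the genes tested were. Without the block, the DESeq2 test also called 0 of the 39 in each. The log2 fold changes that follow are from edgeR without the block, unless stated. The libraries labelled SRF-FOXO1 had log2 fold changes above 0 in 37 of 39 genes, with a median of 0.40 (0.62 for the spindle genes, 0.61 for the mitotic kinase genes, 0.21 for licensing and -0.33 for the inhibitors), and SRF-PDGFRB in 38 of 39, with a median of 0.24. The medians were -0.17 in SRF, -0.07 in SRF-ICA1L and -0.15 in SRF-RELA, and over all genes tested they lay between -0.01 and 0.01. These medians moved when 1 library was left out. Without SRF-FOXO1 replicate 3 that of SRF-FOXO1 was 0.02, and without SRF-PDGFRB replicate 3 that of SRF-PDGFRB was 0.04. Without SRF replicate 3 that of SRF was -0.92. The medians of SRF, SRF-ICA1L and SRF-RELA changed sign when 1 library was left out (0.01 without SRF replicate 2, 0.20 without SRF-ICA1L replicate 2 and 0.01 without pMSCV replicate 3).

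**Figure D4:**
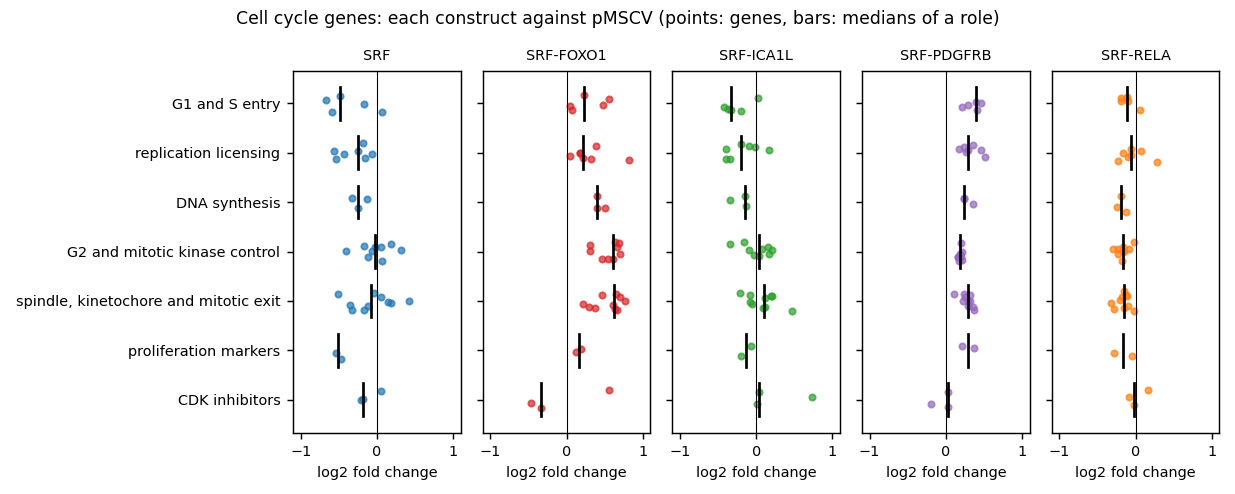
Log2 fold changes of the 39 tested cell cycle genes (points) in each construct against the shared pMSCV libraries, by role, with the median of a role as a bar. None passed an edgeR adjusted p of 0.05 in this fit, which has no replicate block. The points of SRF-PDGFRB lie within 0.52 of 0 and those of SRF-FOXO1 reach 0.82.

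The levels of MKI67 give the spread within groups. It was at 57.6, 105 and 151 CPM in replicates 1, 2 and 3 of pMSCV, at 40.02, 58.9 and 111 CPM in SRF, and at 49.3, 59.8 and 231 CPM in libraries with the label SRF-FOXO1. In SRF-ICA1L it was at 43.7, 53.5 and 180 CPM, in SRF-PDGFRB at 109, 102 and 194 CPM, and in SRF-RELA at 72.9, 77.4 and 142 CPM. The groups overlap, and every group has its highest value in replicate 3. The log2 fold change against pMSCV was -0.54 (edgeR adjusted p 0.951, SE 0.64) in SRF and 0.19 (edgeR adjusted p 0.911, SE 0.63) in the libraries labelled SRF-FOXO1. With the replicate number as a block the SE of both was 0.25 and the values were -0.59 and -0.04, so the second changed sign, and neither was called.

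Of the inhibitors, CDKN2B was called in the fit with a block only. It was at 60.6, 33.1 and 47.9 CPM in replicates 1, 2 and 3 of pMSCV, 47.5, 38.0 and 36.5 CPM in SRF and 91.7, 74.1 and 52.7 CPM in SRF-ICA1L. SRF-ICA1L overlaps pMSCV and lies above SRF in all of its libraries, as for 5.58% of the genes tested, and it was higher than pMSCV in 3 of 3 same-numbered pairs. Against pMSCV its log2 fold change was 0.74 (edgeR adjusted p 0.410, SE 0.31), and with the replicate block 0.73 (edgeR adjusted p 0.0247, SE 0.17). Against SRF it was 0.92 (edgeR adjusted p 0.236, SE 0.32), and with the block 0.91 (edgeR adjusted p 0.00780, SE 0.17). With the block 4.66% and 4.73% of the genes tested were called in these comparisons.

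CDKN2A stood at 6.37, 7.36 and 7.96 CPM under the label SRF-FOXO1, below 11.3, 8.98 and 11.2 CPM in pMSCV. The groups do not overlap, which held for 13.5% of the genes tested in this direction, and the difference of -0.46 on the log2 scale missed the threshold (edgeR adjusted p 0.169, SE 0.15). CDKN1A was at 119, 189 and 124 CPM in libraries with the label SRF-FOXO1 against 91.5, 105 and 117 CPM in pMSCV. These groups do not overlap either, as for 6.41% of the genes tested, and the log2 fold change was 0.56 (edgeR adjusted p 0.215, SE 0.20). Replicate 2 of SRF-FOXO1 stands above the rest at 189 CPM. In SRF-ICA1L, CDKN1A was at 98.2, 95.8 and 98.8 CPM, and in SRF-RELA at 99.0, 98.3 and 86.7 CPM.

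The fusions were also compared with SRF, whose libraries held more SRF than theirs, so the SRF level differs between the groups as well. Against SRF and without the block, edgeR called 0 of the 39 genes in each of the 4 fusions. Of the genes tested, 1.36% were called for SRF-FOXO1, 0.782% for SRF-ICA1L, 0.146% for SRF-PDGFRB and 0.388% for SRF-RELA. At an unadjusted p under 0.05 there were 5, 1, 7 and 1 of the 39, and 2678, 2183, 2231 and 1769 of the 18544 genes tested. With the replicate block there were 28, 1, 20 and 2 of the 39, and 4191, 3497, 3550 and 3054 of the 18544. Of the 39, 1, 1, 1 and 0 were called with the block, where 7.23%, 4.73%, 2.34% and 1.73% of the genes tested were. For SRF-FOXO1 the numbers did not pass the pairing check. Without the block the median log2 fold changes were 0.60, 0.06, 0.39 and 0.08, and with it 0.62, 0.13, 0.57 and 0.19. Each median without the block moved when 1 library was left out. Those fits had no term for number, so the numbers were then unequal between the groups compared. Leaving out 1 library moved the median of SRF-FOXO1 between 0.19 (without SRF-FOXO1 replicate 3) and 1.31 and that of SRF-PDGFRB between 0.21 (without SRF replicate 2) and 1.15. The medians of SRF-ICA1L and SRF-RELA changed sign, from -0.51 (without SRF-ICA1L replicate 3) to 0.85 and from -0.14 (without SRF replicate 1) to 0.78. The highest value was in each case that without SRF replicate 3. The SRF libraries differed widely among themselves: CCNB1 was at 13.8 CPM in replicate 1, 24.6 CPM in replicate 2 and 103 CPM in replicate 3.

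CDC6, in SRF-FOXO1 against SRF, had the lowest edgeR adjusted p of the 39 genes over the 9 comparisons without the block. It was at 7.16, 5.58 and 14.6 CPM in SRF, 10.1, 17.97 and 13.3 CPM in pMSCV, compared with 27.7, 16.2 and 25.5 CPM in libraries with the label SRF-FOXO1. The SRF-FOXO1 libraries lie above those of SRF without overlap, which held for 5.55% of the genes tested. The log2 fold change was 1.38 (edgeR adjusted p 0.0692, SE 0.36), and the DESeq2 test called CDC6 (adjusted p 0.00522). Without SRF replicate 3, the highest SRF library, the log2 fold change was 1.89 and was called (edgeR adjusted p 0.0155). That fit had no term for number and left number 3 without an SRF library, so group and number are mixed in it. In SRF-PDGFRB CDC6 was at 22.8, 16.0 and 20.6 CPM, also above each SRF library, with a log2 fold change of 1.08 (edgeR adjusted p 0.261, SE 0.35).

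SRF-PDGFRB lay above SRF without overlap in 8 of the 39 genes, or 20.5%, where 10.9% of the genes tested did. The 8 are CCND1, CCNE1, CCNE2, E2F1, CDC6, MCM2, MCM4 and CDKN2A, so 4 of the 5 genes of G1 and S entry are among them. CCND1 was at 303, 278 and 301 CPM in SRF-PDGFRB, while SRF had 227, 179 and 175 CPM, and it was at 192, 304 and 174 CPM in pMSCV. Against SRF its log2 fold change was 0.57 (edgeR adjusted p 0.289, SE 0.20), and against pMSCV 0.39 (edgeR adjusted p 1, SE 0.20), where pMSCV replicate 2 reached the SRF-PDGFRB level. E2F1, which switches on replication genes, was at 19.7, 11.02 and 12.1 CPM in SRF-PDGFRB, against 5.90, 4.36 and 9.62 CPM in SRF, a log2 fold change of 1.07 (edgeR adjusted p 0.334, SE 0.42). With the replicate block 1 of the 39 was called against SRF, CENPF, at 84.6, 86.3 and 162 CPM in SRF-PDGFRB against 31.4, 46.8 and 98.0 CPM in SRF (log2 fold change 0.99, SE 0.24, edgeR adjusted p 0.0427; without the block 0.87 and 0.616). The block called 2.34% of the genes tested in that comparison.

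**Figure D5:**
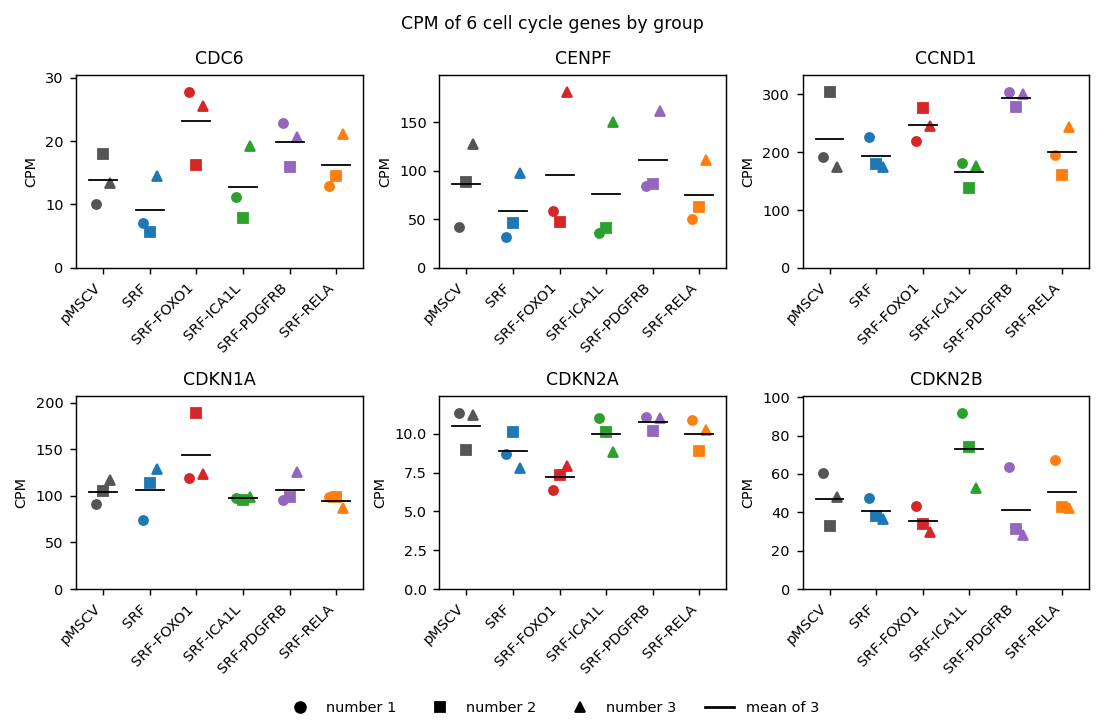
CPM of 6 cell cycle genes in the 18 libraries by group, with the symbol giving the replicate number and the bar the mean of 3 libraries. CENPF is highest in number 3 in every group, CDKN2B is highest in number 1 in every group and SRF-ICA1L has its highest mean, and CDKN2A in SRF-FOXO1 lies below pMSCV without overlap.

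Of the wider lists, few genes were called between groups without the block. Of the 44 other S phase genes and 20 tested G1 regulators, 0 were called in any of the 9 comparisons. Of the 70 other G2 and M phase genes, 1 was: TMPO, a nuclear lamina protein, was higher in the libraries labelled SRF-FOXO1 than in SRF by 1.03 (edgeR adjusted p 0.0244, SE 0.21), at 100.1, 102 and 122 CPM against 48.2, 44.2 and 70.9 CPM. In that comparison 1.36% of the genes tested were called. At an unadjusted p under 0.05, SRF-FOXO1 against SRF had 15 of the S phase genes and 7 of the G2 and M phase genes, and SRF-PDGFRB against SRF had 16 and 5. Of the 18544 genes tested there were 2678 for SRF-FOXO1 and 2231 for SRF-PDGFRB. With the block, SRF-PDGFRB against SRF called 4 S phase genes (4 higher), 6 G2 and M phase genes (5 higher) and 5 G1 regulators (5 higher). These are 9.09%, 8.57% and 25% of the lists, where 2.34% of the genes tested were called. The same fit for SRF-FOXO1 against SRF, whose numbers did not pass the pairing check, called 7, 7 and 3, all higher. These are 15.9%, 10% and 15% of the lists, where 7.23% of the genes tested were called.

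Of the 22 p53 targets, 3 were called in at least 1 comparison, and all 3 are also known as immediate early genes. PLK2, a polo-like kinase, was at 206, 233 and 199 CPM in pMSCV. It reached 331, 738 and 597 CPM in libraries with the label SRF-FOXO1 and 391, 462 and 562 CPM in SRF-ICA1L. It was higher in SRF-FOXO1 than in pMSCV by 1.48 (edgeR adjusted p 0.0214, SE 0.28) and than in SRF by 1.79 (edgeR adjusted p 0.00654, SE 0.28), and in SRF-ICA1L than in SRF by 1.57 (edgeR adjusted p 0.0129, SE 0.28). BTG2, an antiproliferative factor, was at 4.32, 2.84 and 3.71 CPM in pMSCV and 10.7, 10.7 and 7.68 CPM in SRF-ICA1L, with no overlap and a log2 fold change of 1.53 (edgeR adjusted p 0.00399, SE 0.23). Against SRF, BTG2 was higher in the libraries labelled SRF-FOXO1 by 1.03, in SRF-ICA1L by 1.92 and in SRF-RELA by 1.17. PLK3, another polo-like kinase, was higher in SRF-FOXO1 than in pMSCV by 0.65 (edgeR adjusted p 0.0402, SE 0.14) and than in SRF by 0.62 (edgeR adjusted p 0.0399, SE 0.14). The medians of the 22 genes against pMSCV were between -0.16 and -0.05 in the 5 constructs. With the block, 5 of the 22 were called against pMSCV in SRF-FOXO1 (2 higher, 3 lower), where 7.03% of the genes tested were. In SRF-ICA1L 5 of the 22 were called (3 higher, 2 lower), where 4.66% of the genes tested were.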

How the data were processed

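RNA was sequenced from 18 libraries of the MSC-hTERT line. The authors deposited raw read counts per Ensembl gene, 1 table column per library. Per the submitters' processing notes, FastQC 0.11.8, Trimmomatic 0.39, HISAT2 and featureCounts (Subread 2.0.3) were used with GRCh38; neither the annotation version nor strand handling is given in the sources used here. Groups and replicate numbers came from the labels. Nothing says that replicates were separate cultures, so p-values measure only the spread between these libraries, which may be technical.

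Counts were fitted with edgeR 4.0.16 (TMM scaling, filterByExpr with a minimum count of 10, robust quasi-likelihood F test, R 4.3.3) over 18544 genes, with Benjamini-Hochberg adjustment over all of them and calls at an adjusted p under 0.05. The model for groups had group terms only. That for numbers had number and group terms. CPM values are counts scaled to a common library total, without TMM. Each SE was taken as the absolute log2 fold change over the root of F. A total of 19362319 to 29806771 counts per library limits precision for genes of few counts.

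Whether same-numbered libraries deviate together was checked over genes: the median correlation of deviations was 0.38 for pairs with the same number and -0.18 for other pairs, and every pair passed 0.1 in each comparison but SRF-FOXO1 against SRF (lowest 0.087). The fit with the replicate block was therefore read beside the others. Alternatives were DESeq2 1.42.0, other scalings and count filters, the block, a fold minimum, no group terms and leaving out libraries or groups. The fits were also run on simulated counts. For groups these held no difference between replicate numbers, so they cannot show how the fit without the block behaves here.

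The members and the wider gene lists were chosen with earlier results of these data known. Members were named by role. From the wider lists, genes were named by the size of their change among those called, up to 3 in each direction per list and comparison.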

Additional observations from a re-analysis of the deposited data

Results flagged for a closer look

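CDKN1A had 1 library far from the others of its replicate number. Among the 6 libraries with number 2, SRF-FOXO1 replicate 2 was at 189 CPM. On log2 CPM (TMM-scaled), its gap to the next library divided by the whole range was 0.809, above Dixon's 95% critical value for 6 libraries. In all, 141 series of 6 libraries were examined and 1 was flagged; chance alone flags about 1 in 20.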

How the results depend on the processing

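With the replicate block, members called rose from 0 to 1 in SRF-ICA1L against pMSCV, SRF-ICA1L against SRF, SRF-PDGFRB against SRF and SRF-FOXO1 against SRF, and to 2 over the 6 groups (CDKN2B and CDC6, edgeR adjusted p 0.00531 and 0.0439). For CDC6 in SRF-FOXO1 against SRF the block gave 1.45 (edgeR adjusted p 0.00912), although the numbers did not pass the pairing check there. The block changed no other call of the cell cycle genes between groups. The DESeq2 test called 1 in SRF-FOXO1 against SRF and 1 over the 6 groups, CDC6 in both. Leaving out 1 library gave 0 to 1 calls in SRF-FOXO1 against SRF (1 without SRF replicate 3). Number 2 against 1 had 1 call, which became 2 with total count scaling, 6 with the DESeq2 test, 2 with at least 10 counts in every library, 0 with a minimum absolute change of 1 (log2), 0 without group terms and 1 to 9 when a group was left out. Number 2 against 3 had 28 calls, and 18 to 35 when a group was left out (35 without pMSCV); 18 of the 28 held under each of 12 alternatives, which do not include the minimum change, and 20 had a change of at least 1. The cause of these changes was not tested. Number 3 against 1 stayed between 18 and 25 calls under the alternatives run. Total count scaling moved the genes called in number 2 against 3 from 4.99% higher and 4.99% lower to 3.34% and 6.89%, and moved the median of all genes in SRF-ICA1L against pMSCV from -0.005 to -0.116. At 1 to 9 counts a library, differences in NUSAP1 were not detectable.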
